A study of Mus musculus with 8 samples.

Results

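Gene deserts are long stretches of a chromosome that hold no protein-coding gene. Among the 49587 accessible regions that ATAC-seq gave across 8 fasted mouse liver libraries, 2924 (5.90%) lay more than 100 kb from the span of every protein-coding gene. These 2924 desert regions were chosen from the deposited consensus positions and the gene table alone, without regard to which libraries called them or how strongly. The calls still bear on membership, because every consensus region was called in at least 1 of these libraries. Of the desert regions, 1007 were called in 1 library only, and a longer list can add more such members. The other 46663 regions, called nearer regions here, served as the comparison, and 32455 of them touched a gene span.

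ATAC-seq uses a transposase to insert sequencing adapters into open chromatin, and MACS2, a peak caller, then marks where the inserts pile up. The livers came from male C57BL/6 mice aged 9 weeks that had gone 24 h without food, from one afternoon to the next, after standard chow. There were 4 genotypes with 2 libraries each. They were wild type, a liver knockout of Cpt2 (Cpt2 L-/-), a knockout of Ppara labelled with no tissue (Ppara -/-), and the double knockout (Cpt2 L-/- ; Ppara -/-). Ppara encodes a nuclear receptor that senses fatty acids and drives the hepatic fasting response. Cpt2 encodes the inner-membrane enzyme without which mitochondria cannot oxidise long-chain fatty acids. The labels name neither the Cre driver of the liver knockout nor the alleles, and do not say whether the 2 libraries of a genotype came from separate animals. The p-values below therefore measure the spread between libraries, which may be technical.

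Open regions far from genes are often enhancers, stretches of DNA that bind transcription factors and act on promoters over long distances. Deserts tend to flank genes of development and transcription control, whose regulation is spread over many distal elements. Deserts also hold long non-coding RNA genes and microRNA genes, whose own promoters are open where they are transcribed.

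Sequence could be read for the desert regions that overlapped the start of a non-coding gene, from RefSeq promoter windows on GRCm38.p6, the assembly of mm10. Each window runs from 250 bases before to 50 bases after the start and is shown 5′ to 3′ on the gene's own strand. The 6 windows below were chosen after their values were seen. The first belongs to the strongest region by mean percentile called only where Ppara was lost. The next 4 belong to regions called only where Ppara was intact, and were picked because they hold AGGTCA, a half-site of nuclear receptors. Of the 7 genes with such a region, 4 held it, and the windows without it are not shown. AGGTCA also occurred in 16.3% of all promoter windows. The direct repeat of AGGTCA that the dimer of Ppara and Rxr binds was present at 0 of the 7. The last belongs to the promoter region with the highest mean percentile among those called in all 8 libraries. Capitals mark AGGTCA on either strand (TGACCT on the printed strand), and in the last window TGANTCA, the site of AP-1 factors such as Jun.
Gm41331, chr15:60141661-60141960, plus strand: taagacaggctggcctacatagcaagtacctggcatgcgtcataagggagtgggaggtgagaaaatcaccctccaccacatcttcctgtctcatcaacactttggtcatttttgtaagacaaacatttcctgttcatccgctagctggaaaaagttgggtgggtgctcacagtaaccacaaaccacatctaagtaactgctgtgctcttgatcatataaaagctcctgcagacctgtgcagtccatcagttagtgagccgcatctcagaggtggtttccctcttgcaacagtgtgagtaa
LOC115486416, chr4:127522136-127522435, plus strand: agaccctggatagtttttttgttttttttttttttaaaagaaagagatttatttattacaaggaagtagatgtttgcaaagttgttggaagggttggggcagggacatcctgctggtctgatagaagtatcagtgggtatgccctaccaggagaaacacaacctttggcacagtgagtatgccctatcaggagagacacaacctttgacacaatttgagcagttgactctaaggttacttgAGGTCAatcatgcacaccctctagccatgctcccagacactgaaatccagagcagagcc
Gm36680, chr3:38151656-38151955, plus strand: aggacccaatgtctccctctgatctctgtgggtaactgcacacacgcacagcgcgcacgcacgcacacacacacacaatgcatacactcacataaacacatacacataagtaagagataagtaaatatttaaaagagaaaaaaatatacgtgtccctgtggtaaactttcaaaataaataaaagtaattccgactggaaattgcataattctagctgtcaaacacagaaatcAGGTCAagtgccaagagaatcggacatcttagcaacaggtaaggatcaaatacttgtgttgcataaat
Gm13816, chr2:92741980-92742279, plus strand: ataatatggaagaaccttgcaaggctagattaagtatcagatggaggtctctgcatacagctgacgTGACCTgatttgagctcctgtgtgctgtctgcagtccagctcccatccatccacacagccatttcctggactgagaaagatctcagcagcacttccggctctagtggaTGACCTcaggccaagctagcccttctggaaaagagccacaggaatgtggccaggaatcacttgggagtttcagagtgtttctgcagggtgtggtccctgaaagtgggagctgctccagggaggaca
Gm51680, chr9:61033616-61033915, minus strand: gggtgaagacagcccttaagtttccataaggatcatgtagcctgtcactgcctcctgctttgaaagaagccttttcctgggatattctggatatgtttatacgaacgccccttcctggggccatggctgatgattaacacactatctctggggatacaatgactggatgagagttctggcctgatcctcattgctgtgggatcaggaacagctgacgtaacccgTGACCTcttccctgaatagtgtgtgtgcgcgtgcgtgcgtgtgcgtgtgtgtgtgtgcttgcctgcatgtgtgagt
Gm8883, chr1:71887862-71888161, plus strand: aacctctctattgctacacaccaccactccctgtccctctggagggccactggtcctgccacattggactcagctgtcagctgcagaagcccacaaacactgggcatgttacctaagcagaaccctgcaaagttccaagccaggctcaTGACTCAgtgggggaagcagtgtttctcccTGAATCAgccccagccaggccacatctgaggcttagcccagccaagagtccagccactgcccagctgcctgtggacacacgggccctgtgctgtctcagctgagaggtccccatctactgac
A further desert region covered the hairpin of Mir802, a liver microRNA gene, and its 2 mature products are given with the seed (bases 2 to 8) in capitals.
mmu-miR-802-5p: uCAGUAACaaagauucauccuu
mmu-miR-802-3p: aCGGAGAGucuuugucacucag

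The median desert region lay 187948 bp from the nearest coding gene, 276 lay beyond 500 kb and 60 beyond 1 Mb. Their median width was 336 bp, against 384 bp for nearer regions, with a range of 200 to 1606 bp. They were not evenly spaced. The median distance to the next desert region was 16.02 kb, and 1231 of them (42.1%) had another within 10 kb. At the threshold, the regions just inside lay 100032 bp from Dynlrb2, a dynein light chain gene, and 100041 bp from Zfp365, with calls in 3 and in 8 libraries. Those just outside lay 99982 bp from Slc39a11, a zinc transporter gene, and 99944 bp from Nectin1, a cell adhesion gene, with calls in 1 and in 8.

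The lists of single libraries differ in length, which bears on every count below. They held 28733 to 39296 peaks in the 4 libraries with Ppara intact (wild type and Cpt2 knockout) and 18132 to 22715 in the 4 without it (Ppara knockout and double knockout). The read depth is not given, but the background at the lowest peaks solved to 4.097 tags in each library. A number in the deposited peak names was 441, 443 and 446 in wild type 1, wild type 2 and Cpt2 knockout 1, 4717 in Cpt2 knockout 2 and 6831 to 6834 in the Ppara-null libraries. What it marks is not stated, and a difference tied to it cannot be told apart from Ppara status. Calls do not test the knockouts: 1 of 3 regions at Cpt2 and 2 of 10 at Ppara were called in all 8 libraries, and the deleted exons are not named. Of 10 hepatocyte genes, 8 had a region at a gene end in all 8 libraries and none lacked one. None of 5 leukocyte genes had one in any library. Of 4 endothelial, 4 stellate and 4 cholangiocyte genes, none had one in all 8 and 3, 2 and 2 had none.

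Desert regions were called less often than nearer regions in every library. A region counts as called where a peak overlaps it by at least 1 bp. A region with no peak in a library is not shown to be closed there, since the lists hold only peaks that passed the calling cutoff. The part of read depth in the calls was not tested. Wild type libraries called 1237 and 1687 desert regions (42.3% and 57.7% of them), and Cpt2 knockout libraries 1963 and 1738 (67.1% and 59.4%). Ppara knockout libraries called 844 and 675 (28.9% and 23.1%), and double knockout libraries 988 and 773 (33.8% and 26.4%). Thus every Ppara-null library lay below every Ppara-intact one. The share of nearer regions called was 57.8%, 72.6%, 78.4%, 72.1%, 40.5%, 36.4%, 45.2% and 36.1% in the same order. Paired by library, the desert share was lower by 12.5 ± 1.96 percentage points (SD, n = 8), and lower in 8 of 8 libraries (two-sided exact sign-flip permutation test, p = 0.0078, the least that 256 sign patterns allow, adjusted p = 0.00893 over 8 such tests). Against regions 10 to 100 kb from a gene alone, the difference was -4.84 points, again in 8 of 8 (exact p = 0.0078).

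**Figure D1:**
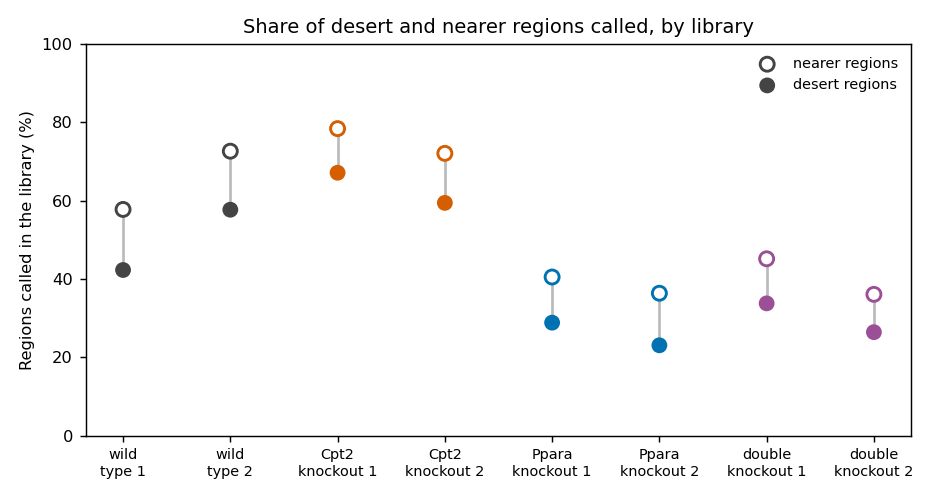
Percentage of desert regions (filled) and nearer regions (open) called in each of the 8 libraries, 1 pair of points per library, coloured by genotype. The filled point is below the open one in each library, and the 4 Ppara-null libraries lie lowest, between 23.1% and 33.8% of desert regions.

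The number of desert regions called was lower in the Ppara-null libraries. The exact permutation p passed the threshold of 0.05 before adjustment but not after it. The 4 Ppara-intact libraries called 1656 ± 304 of them and the 4 Ppara-null libraries 820 ± 132 (SD), which is -836.25 for null minus intact (exact permutation p = 0.0286, two-sided and the least that 70 orders allow, with an adjusted p of 0.171 over 12 tests). At most 4 of the 12 tests can reach 0.0286, so the least adjusted p possible is 0.0857. The difference moved with the length of the lists, and with each list cut to its 18132 strongest peaks it was 16.75 regions in the other direction (exact p = 0.6). Nearer regions had the same order, with 39.5% ± 4.26 called in Ppara-null and 70.2% ± 8.78 in Ppara-intact libraries.

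Of all regions called in a library, deserts made up 3.82% to 5.09%. Their share was 4.39% and 4.74% in wild type, 5.09% and 4.91% in Cpt2 knockout, 4.27% and 3.82% in Ppara knockout and 4.48% and 4.39% in double knockout. The share was 4.24% ± 0.290 in Ppara-null and 4.78% ± 0.301 in Ppara-intact libraries (SD, n = 4 each, exact permutation p = 0.0857, adjusted 0.343). It was 4.72% ± 0.339 in Cpt2-null (Cpt2 knockout and double knockout) and 4.31% ± 0.378 in Cpt2-intact libraries (exact permutation p = 0.143, adjusted 0.343). Both differences missed the threshold. Within each Ppara status, both Cpt2-null libraries had a higher share than both Cpt2-intact ones. Cut to equal length, the lists kept that order at 3.66% and 3.91% (wild type), 4.004% and 4.21% (Cpt2 knockout), 4.09% and 3.802% (Ppara knockout) and 4.19% and 4.39% (double knockout), with an exact p of 0.0571. With peaks covering at least 50% of a region the Cpt2 difference was 0.54 points (exact p = 0.0286).

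In all 8 libraries 327 desert regions (11.2%) were called, against 22.7% of all regions. In 1 library alone 1007 (34.4%) were called, against 22.3% of nearer regions. The share called in all 8 was 27.5% for regions touching a gene, 13.9% within 10 kb, 14.5% from 10 to 100 kb and 11.2% beyond 100 kb. Desert regions were called in a median of 3 libraries and nearer regions in a median of 4. Width went with the number of libraries, with a median of 241 bp for desert regions called once and 500 bp for those called in all 8, where nearer regions had 647 bp. Regions called once made up 6.22% to 13.0% of the desert calls of a library and 1.65% to 9.09% of its nearer calls.

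**Figure D2:**
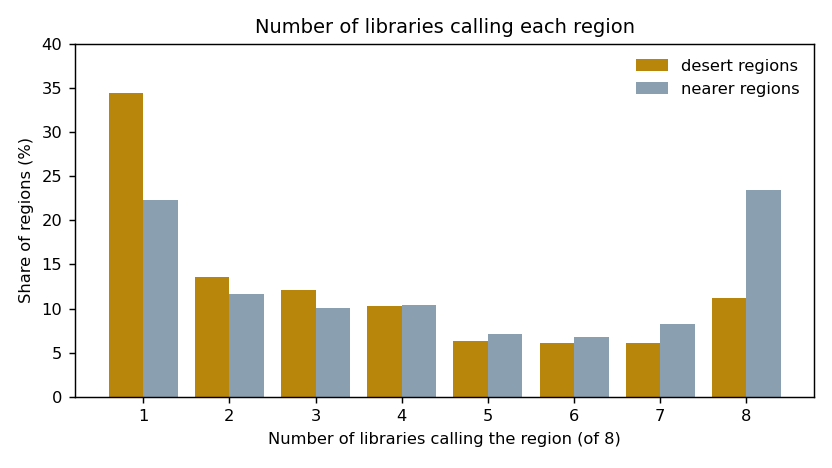
Share of desert regions (gold) and nearer regions (grey-blue) by the number of libraries calling them, from 1 to 8. Desert regions stand above nearer ones at 1 library (34.4% against 22.3%) and below at 8 libraries (11.2% against 23.4%).

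Replicates of a genotype shared a smaller part of their desert calls than of their nearer calls in each of the 4 genotypes, a difference that was not tested. Of the desert regions called in either wild type library, 54.3% were called in both, against 68.5% of nearer ones. The figures were 63.3% and 71.4% in Cpt2 knockout, 43.7% and 62.3% in Ppara knockout and 51.3% and 64.3% in double knockout. In 710 desert regions (24.3%) both replicates were alike in all 4 genotypes, against 36.2% of nearer regions.

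Once called, a desert peak rose slightly higher over its background than a nearer peak, but ranked lower by p-value. The deposited fold is the pileup at the summit over the local background, and the deposited −log10 p measures the same excess with the number of tags behind it. The median fold of desert peaks was 6.67 and 7.65 in wild type, 7.46 and 7.46 in Cpt2 knockout, 6.08 and 5.76 in Ppara knockout and 6.43 and 6.25 in double knockout. Nearer peaks had 6.62 and 7.51, 7.29 and 6.87, 6.02 and 5.69, and 6.12 and 6.03 in the same order. The desert median was the higher one in 8 of 8 libraries, by 0.202 ± 0.180 (SD, n = 8, exact sign-flip permutation p = 0.0078, adjusted p = 0.00893). Against regions 10 to 100 kb from a gene it was higher in 6 libraries and lower in 0, by 0.115 (exact p = 0.03125).

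The median −log10 p of desert peaks was 23.2 and 29.9 in wild type, 28.0 and 27.9 in Cpt2 knockout, 19.6 and 17.0 in Ppara knockout and 21.1 and 19.9 in double knockout. For nearer peaks it was 29.2 and 37.5, 35.6 and 32.8, 21.7 and 20.1, and 22.9 and 21.3. As a percentile within its own list, the median desert peak stood at 39.3 to 46.7 and the median nearer peak at 50.9 to 51.8. The paired difference was -8.47 ± 2.81 percentiles (SD, n = 8, lower in 8 of 8, exact sign-flip permutation p = 0.0078, adjusted p = 0.00893). Against regions 10 to 100 kb from a gene it was -3.29, again in 8 of 8 (exact p = 0.0078).

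Desert peaks also had a lower background. It is solved from fold and −log10 p, so the comparisons of fold, percentile and background are not independent. Each covers called peaks only, and the part of the calling cutoff in them was not tested. Fold and −log10 p together give the background of each peak, except for the strongest peaks, which were not solved. The median background was 4.37 to 4.86 tags at desert peaks and 6.02 to 7.96 at nearer ones. It was lower at desert peaks by 2.31 ± 0.589 (SD, n = 8, in 8 of 8, exact sign-flip permutation p = 0.0078, adjusted p = 0.00893). Against regions 10 to 100 kb from a gene the difference was -0.959 tags, again in 8 of 8 (exact p = 0.0078). Between 37.3% and 43.0% of desert peaks sat at the lowest background of the list, against 11.3% to 13.8% of nearer peaks. The median pileup was 34 to 50 tags at desert peaks and 42 to 67 at nearer ones. A desert peak thus had fewer tags in all over a lower background.

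**Figure D3:**
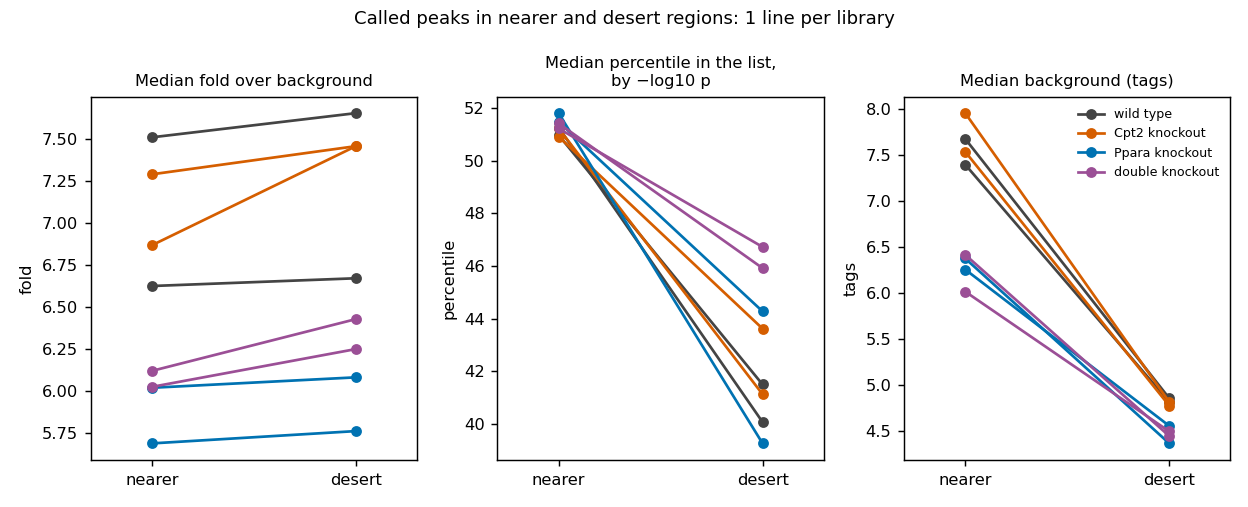
Median fold, median percentile by −log10 p and median background in tags of called peaks, for nearer regions (left of each panel) and desert regions (right), with 1 line per library coloured by genotype. In each of the 8 libraries fold is higher, and percentile and background are lower, in deserts, and the vertical axes do not start at 0.

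By genotype, the ratio of the desert to the nearer median fold was 1.007 and 1.019 in wild type, 1.023 and 1.086 in Cpt2 knockout, 1.0103 and 1.013 in Ppara knockout and 1.050 and 1.037 in double knockout. All 4 Cpt2-null libraries lay above all 4 Cpt2-intact ones, at 1.049 ± 0.0269 and 1.012 ± 0.00516 (SD, n = 4 each, exact permutation p = 0.0286, adjusted p = 0.171). Cpt2 knockout 2, with the highest ratio, is the library whose peak names carry the number 4717. The difference was 0.0367 with all libraries and 0.0245 without Cpt2 knockout 2, the lowest value with any library left out. In equal-number lists it was 0.0404 with an exact p of 0.2. The median desert percentile was 2.46 higher in Ppara-null than in Ppara-intact libraries (exact permutation p = 0.229, adjusted p = 0.457) and 3.07 higher in Cpt2-null than in Cpt2-intact ones (exact permutation p = 0.143, adjusted p = 0.343). Both missed the threshold. In equal-number lists the latter was 4.15 (exact p = 0.0286), and the former was -0.0676. The interaction of the 2 knockouts missed the threshold for all 4 measures, with exact p of 0.457 to 0.943.

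The desert regions lay on all 21 chromosomes that carried regions, and chromosome 13 stood out by density. It held 256 of them, 11.7% of its regions and 7.46 per Mb of desert, against 4.16 per Mb over the 679.7 Mb of desert on autosomes. Chromosome 9 followed with 5.71 per Mb, and chromosome 14 had the lowest autosomal density at 2.90 per Mb. Chromosome 19, which is short and gene-rich, held 41 (2.41% of its regions). The X chromosome held 53, or 0.861 per Mb, and its nearer regions were also sparse at 6.24 per Mb, against 21.0 to 36.0 on autosomes. Chromosome Y held 4. Unassembled sequence, which the length of a desert includes, was not subtracted, and the 41 regions outside the first or last gene of a chromosome are left out of the densities. The share of desert regions called followed the same order of Ppara status on each autosome and on X, but not on Y. On chromosome 13 it was 52.5% in wild type, 67.2% in Cpt2 knockout, 27.3% in Ppara knockout and 29.5% in double knockout, averaged over 2 libraries each.

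**Figure D4:**
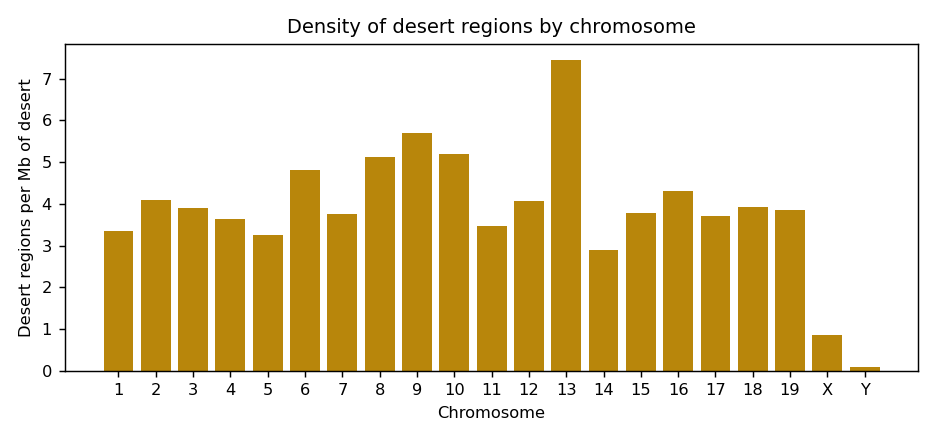
Desert regions per Mb of desert (sequence over 100 kb from any coding gene, between the first and last gene) for each chromosome, with bars starting at 0. Chromosome 13 is highest at 7.46 per Mb, and X (0.861) and Y (0.0846) are lowest.

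Desert regions were spread unevenly over the gaps between coding genes. Of 1689 gaps longer than 200 kb, 813 (48.1%) held a desert region, 289 of these held 1, and 62 held 10 or more. Those 62 carried 889 regions, 30.4% of all. The fullest gap, between Maf, a basic leucine zipper transcription factor gene, and Dynlrb2, held 32 regions within 798 kb. The libraries called 14 and 25 of these in wild type, 23 and 26 in Cpt2 knockout, 10 and 6 in Ppara knockout and 9 and 11 in double knockout. Of the 32, 4 were called in all 8 libraries and 2 in the Ppara-intact libraries alone. For this gap and those below, the shares over all desert regions were 11.2% and 6.12%. Over all regions they were 22.7% and 6.82%.

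The gap from Myc, a growth-promoting transcription factor gene, to Gsdmc, a gasdermin gene, held 28 regions within 1786 kb. It had 9 regions called in all 8 libraries, the most of the 5 fullest gaps. The gap from Foxo1, the forkhead factor that switches on glucose production in fasting, to Cog6, a Golgi complex gene, held 24 regions, of which 2 were called in all 8. Wild type libraries called 12 and 15 of the Foxo1 regions, Cpt2 knockout 21 and 16, Ppara knockout 8 and 3, and double knockout 8 and 9. A further 24 regions lay between Serp2, an endoplasmic reticulum stress gene, and Lacc1, with 5 called in the Ppara-intact libraries alone. Between Id2, an inhibitor of helix-loop-helix factors, and Rnf144a, a ubiquitin ligase gene, lay 23 regions, of which 21 and 15 were called in Cpt2 knockout and 4 and 3 in Ppara knockout.

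A list of 50 liver and developmental regulators was drawn up with earlier results of these data known, so its contrasts are not tests. Of these regulators, 27 (54%) flanked a gap with a desert region, against 6.76% of all 21900 protein-coding genes. Their gaps held 264 desert regions, of which 13.3% were called in all 8 libraries and 8.33% in the Ppara-intact libraries alone, against 11.2% and 6.21% of the regions in all gaps. The median gap with a desert region was 583 kb long and that of gaps over 200 kb without one was 324 kb, and the part of gap length in the count was not tested. Sox9, the biliary and cartilage factor gene, flanked gaps with 18 regions, none called in all 8 libraries. Gata6 flanked 15, of which 3 were called in all 8, and Bcl6, a repressor that opposes Ppara on lipid genes, flanked 13, of which 4 were called in the Ppara-intact libraries alone. Cebpb, a liver leucine zipper factor gene, flanked 6 regions, of which 5, 6, 5 and 4 were called in the Ppara-intact and 4, 3, 3 and 3 in the Ppara-null libraries.

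Several regulators had small gaps with a one-sided pattern, each chosen after the values were seen. The 3 regions beside Prox1, a hepatocyte lineage factor gene, were each called in 1 library, 2 of them in Ppara knockout 1 and 1 in Ppara knockout 2. Of the 2 regions beside Meis1, a homeobox gene, each Ppara knockout library called 1, the double knockout libraries called 1 and 2, and no Ppara-intact library called either. Other regulators had the opposite pattern, with no call in a Ppara-null library. The Ppara-intact libraries called 0, 1, 3 and 2 of the 3 regions beside Bmp2. They called 0, 1, 2 and 0 of the 2 beside Tcf7l2, and 0, 0, 1 and 1 of the 1 beside Tcf4. Of 28 lipid genes, 3 flanked a desert gap, namely Acsl4, Lpin1 and Ppargc1a. The 5 regions beside Lpin1, whose product makes diacylglycerol and coactivates Ppara, had no call in a Ppara-null library, while the Ppara-intact libraries called 3, 2, 4 and 5 of them. Only 1 of the 5 was called in every Ppara-intact library, and 1 was called in a single library. Over all desert regions, Ppara-null libraries called 23.1% to 33.8% and Ppara-intact ones 42.3% to 67.1%. The 6 beside Ppargc1a, the fasting coactivator gene, had 4, 5, 4 and 4 called in the Ppara-intact and 3, 4, 3 and 3 in the Ppara-null libraries.

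Among the desert regions called in all 8 libraries, the first by mean percentile was chr1:102628087-102628453, which is also the farthest from any coding gene, 2137487 bp from Cntnap5b and 2139886 bp from Cdh20, a cadherin gene. Its fold was 42.7 and 37.5 in wild type, 39.3 and 40.5 in Cpt2 knockout, 26.2 and 27.6 in Ppara knockout and 34.6 and 30.2 in double knockout. The fold was lower in each Ppara-null library than in each Ppara-intact one, and the percentile was 99.88 to 99.98 in the 8 lists. The same order of fold by Ppara status held for the median of all desert and of all nearer regions called in all 8 libraries. The 2 next most distant regions, in the same gap, were each called in wild type 2 alone with folds of 5.69 and 4.51.

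Next came chr15:41276793-41277171, between Zfpm2, a Gata cofactor gene, and Oxr1, inside the non-coding gene Gm33557, with folds of 40.6, 39.7, 36.7 and 37.7 in the Ppara-intact and 17.7, 24.2, 34.3 and 33.7 in the Ppara-null libraries. Region chr1:122357026-122357405, between Ddx18, an RNA helicase gene, and Dpp10, had 39.6, 39.3, 37.3 and 38.9 against 15.3, 21.3, 31.2 and 27.4. Region chr4:7391592-7391966, between Tox, an HMG-box factor gene, and Car8, had 39.2, 38.0, 37.8 and 37.3 against 14.2, 24.5, 30.05 and 28.0. In these 3 regions both Ppara knockout libraries had the lowest folds and the double knockout lay between them and the Ppara-intact libraries. The fifth, chr7:135985939-135986594, between Mki67, the proliferation marker gene, and Mgmt, a DNA repair gene, was weaker, with folds of 11.6 to 18.7.

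The first 4 of these regions were narrow for their strength. They were the only desert regions called in all 8 libraries with a mean percentile of at least 99, and their widths were 367 to 380 bp, all below 400 bp. Of the 143 nearer regions that met the same bound, 13 were below 400 bp, and the median width was 816 bp. The 3 widest desert regions lay between Irf2bp2 and Tomm20 (1606 bp, fold 3.88 to 7.34), between Tcp10c and Tcte2 (1384 bp, 7.40 to 9.61) and between Ppp1r14bl and Ogfrl1 (1317 bp, 12.3 to 16.6). All 3 were called in all 8 libraries.

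Among the 327 regions called in all 8 libraries, desert peaks again had the higher median fold in each library. It was 10.1 and 12.4 in wild type, 12.6 and 11.9 in Cpt2 knockout, 7.69 and 6.67 in Ppara knockout and 9.12 and 7.68 in double knockout. The 10931 nearer regions called in all 8 had 9.23 and 11.3, 11.3 and 9.81, 6.93 and 6.37, and 7.41 and 6.67. The median percentile was higher in deserts in Cpt2 knockout 2, Ppara knockout 1 and both double knockout libraries, and lower in the other 4.

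More desert regions were called only with Ppara intact than only without it, as among all regions. Every Ppara-intact library but none of the Ppara-null ones called 179 desert regions (6.12%), against 6.82% of all regions. The reverse held for 5 (0.171%), against 0.0686% of all regions. With lists of equal number the counts were 26 of 402 and 17 of 254, and 21 and 4 of these had also been separated with all peaks. Without wild type 1, the shortest Ppara-intact list, the Ppara-intact pattern held for 374 desert regions (12.8%). Without any other single library it held for 185 to 231. Leaving out a library loosens the rule each time, and the cause of the larger count was not tested. The Ppara-null pattern held for 8 without Cpt2 knockout 1, for 9 without Cpt2 knockout 2 or Ppara knockout 1, and for 10 (0.342%) without Ppara knockout 2. The median percentile of the 179 was 28.1 and 44.8 in wild type and 48.3 and 42.5 in Cpt2 knockout. That of the 3205 nearer regions of the same pattern was 28.8, 41.3, 45.3 and 37.2.

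The strongest region by mean percentile called where Ppara was intact alone was chr15:62302187-62302751, 311825 bp from Myc on the side of Gsdmc. Its fold was 10.1 and 16.9 in wild type and 14.7 and 15.5 in Cpt2 knockout, at percentiles of 68.5 to 96.5. It was also the strongest one-sided region in wild type against both Ppara-null genotypes and in Cpt2 knockout against double knockout. Next were chr18:81191944-81192712, between Sall3, a zinc finger factor gene, and Galr1, with folds of 8.44, 12.8, 10.9 and 10.7, and chr1:154034137-154034563, between Glul, the glutamine synthetase gene, and Zfp648, with folds of 8.91, 12.1, 10.1 and 8.67. All 3 kept their pattern in equal-number lists.

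All 5 regions called where Ppara was lost are named here. The strongest, chr15:60141663-60142122, covered 298 of the 300 bases of the Gm41331 window printed above, in the gap from 4933412E24Rik to Lratd2. Its fold was 17.7 and 21.6 in Ppara knockout and 16.9 and 18.5 in double knockout, at percentiles of 95.8 to 99.5. No Ppara-intact library had a peak there. Region chr10:55214982-55215358, between Man1a, a mannosidase gene, and Tbc1d32, had folds of 10.2, 12.2, 9.61 and 11.2. Region chr12:35685260-35685637, between Ahr, the receptor for dioxins, and Agr3, inside the non-coding gene 9130015A21Rik, had folds of 7.78, 7.85, 8.46 and 8.82. The other 2 were weaker, at mean percentiles of 30.2 and 28.1. They lay between Mmadhc, a cobalamin gene, and Rnd3, and between Cyp7b1, an oxysterol hydroxylase gene, and Armc1. In equal-number lists 4 of the 5 kept the pattern, and the region beside Cyp7b1 was called in 3 Ppara-null libraries.

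**Figure D5:**
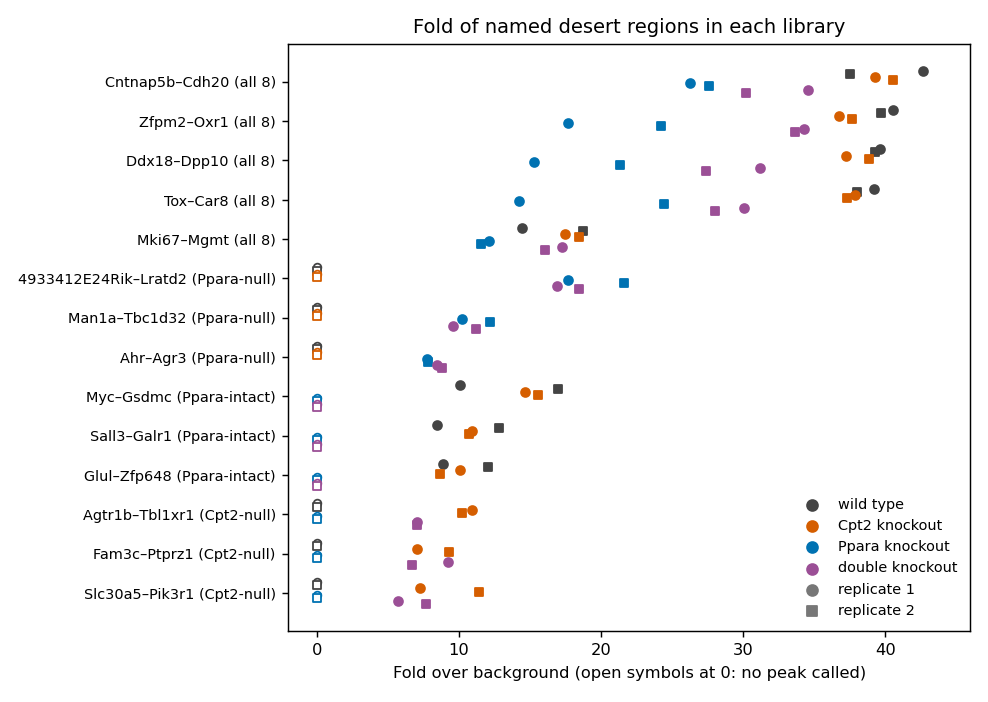
Fold over background in each library for 14 named desert regions, labelled by their flanking coding genes and by the libraries that called them, with genotype as colour, replicate as symbol shape and open symbols at 0 for no peak. The top 5 are called in all 8 libraries, and the Ppara-null and Ppara-intact sets show symbols of 1 Ppara status each.

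By Cpt2 status, 7 desert regions (0.239%) were called in all 4 Cpt2-null and no Cpt2-intact library, against 0.0968% of all regions. No desert region (0%) showed the reverse, against 0.00605% of all regions, or 3 regions. The strongest of the 7 by mean percentile, chr3:21407087-21407493, lay between Agtr1b and Tbl1xr1, a gene of the nuclear receptor corepressor complex, with folds of 10.9 and 10.2 in Cpt2 knockout and 7.04 and 7.06 in double knockout. Region chr6:22490822-22491191, between Fam3c and Ptprz1, had folds of 7.06 and 9.33 and of 9.22 and 6.67. Region chr13:101513380-101513744, between Slc30a5 and Pik3r1, which encodes the regulatory subunit of phosphoinositide kinase, had 7.26 and 11.4 and then 5.69 and 7.65. The other 4 lay between Jun and Fggy, between Gpatch2 and Esrrg, an orphan nuclear receptor gene, between Prok2 and Rybp, and between Myc and Gsdmc, at mean percentiles of 19.7 to 33.7. Without wild type 2 the pattern held for 16 desert regions, and without double knockout 2 for 14. Equal-number lists left 2 desert regions with this pattern, and the region beside Tbl1xr1 was the only one of the 7 that kept it there.

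Pairs of genotypes were compared by the regions called in both libraries of one and neither of the other, and the pairs share libraries. With 2 libraries against 2 no test was made. Ppara knockout against wild type gave 25 desert regions in Ppara knockout (0.855%, against 0.46% of all regions) and 349 in wild type (11.9%, against 13.6%). Double knockout against wild type gave 63 (2.15%, against 1.2%) and 317 (10.8%, against 12.9%). Double knockout against Cpt2 knockout gave 39 (1.33%, against 0.597%) and 638 (21.8%, against 20.4%). Cpt2 knockout against Ppara knockout gave 676 (23.1%, against 21%) and 15 (0.513%, against 0.28%). In all 4, the Ppara-intact side had the larger number, and deserts made up 10.6% to 13.2% of the regions gained on the Ppara-null side, against 5.90% of all regions. With equal-number lists they made up 5.51% to 7.13% of them.

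One-sided desert regions were fewer between genotypes that differ in Cpt2 alone. Cpt2 knockout against wild type gave 126 desert regions in Cpt2 knockout (4.31%, against 3.63%) and 16 in wild type (0.547%, against 0.512%). Double knockout against Ppara knockout gave 79 in double knockout (2.70%, against 2.33%) and 33 in Ppara knockout (1.13%, against 1.45%). With equal-number lists the counts were 39 and 10, and 65 and 33. There deserts made up 8.57% of the regions called in Cpt2 knockout and not wild type and 2.48% of the reverse, and 6.47% and 3.63% in double knockout against Ppara knockout. In both pairs the Cpt2-null side thus held the larger desert share.

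The leading regions of these pairs were as follows. Both Cpt2 knockout libraries and no other library called chr2:72753916-72754318, between Cdca7 and Sp3, inside the non-coding gene 6430710C18Rik, with folds of 8.07 and 10.4. Region chr15:59786660-59787127, 129560 bp from Trib1, a pseudokinase gene of hepatic lipid control, was called in all but the Ppara knockout libraries, with folds of 6.997 to 11.3. Region chr16:29943973-29944353, 121003 bp from Hes1, a Notch target gene, was called in all but the double knockout libraries, with folds of 5.81 to 10.2. These 3 regions also had these patterns in equal-number lists.

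Non-coding genes reached into many deserts. The span of a non-coding gene held 723 desert regions (24.7%), 684 of them in a long non-coding RNA gene, against 13.5% of nearer regions. Counting non-coding genes too, 350 regions remained more than 100 kb from any gene. In all, 82 desert regions lay on the promoter window of 82 non-coding genes. Of these 82 regions, 19 (23.2%) were called in all 8 libraries, against 10.8% of the other desert regions and 22.7% of all regions. A further 7 were called in the Ppara-intact libraries alone, and 1, that of Gm41331, in the Ppara-null ones alone.

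The promoter region of Gm8883, between Fn1, the fibronectin gene, and Mreg, had the highest mean percentile of the promoter regions called in all 8 libraries, with folds of 13.2, 15.0, 14.6 and 14.4 in the Ppara-intact and 10.9, 10.2, 11.1 and 11.7 in the Ppara-null libraries. That of LOC115486416 had folds of 6.78 and 15.7 in wild type and 14.5 and 13.1 in Cpt2 knockout. That of Gm36680 had 6.67, 11.4, 14.5 and 11.4 in these libraries, that of Gm13816 had 5.38, 4.71, 8.54 and 6.01, and that of Gm51680 had 4.003, 4.07, 6.97 and 5.46. None of these 4 was called in a Ppara-null library, and wild type 1 or 2 had the lowest value of each. Gm51680 lies in the gap from Uaca to Tle3, where the promoter region of its neighbour Gm33699 was called in all 8 libraries. The same contrast occurred between Rtl1 and Dio3, where region chr12:110024208-110024740 at the start of Gm40574 was called in all 8 libraries and region chr12:110023709-110024048, at that of Gm34667, in the Ppara-intact ones alone. The Gm34667 windows also reach 28 to 35 bp into the first of these regions, so Gm34667 counts under both patterns. That gap belongs to an imprinted domain.

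The promoter windows were searched on both strands for motifs chosen after the values were seen. The half-site AGGTCA was present at 27 of the 82 genes (32.9%), against 16.3% of all 32851 promoter windows and 19.1% of the 11588 non-coding ones. It was present at 4 of the 7 genes with a region called in the Ppara-intact libraries alone and at 3 of the 20 with a region called in all 8. The direct repeat that the dimer of Ppara and Rxr binds, AGGTCA followed by any base and again AGGTCA, was present at 0 of 82 and in 0.0396% of all windows. The forkhead motif TGTTTAC was present at 5 of 82 (6.10%, against 3.65% of all windows), and TGANTCA at 6 (7.32%, against 7.81%). CAAAGTCCA, an Hnf4 motif, and TTGCGCAA, a C/EBP motif, were present at 0 of 82 and in 0.475% and 0.183% of all windows. A match gives letters in a window and not binding. The 82 genes had 97 windows, and genes with several windows were counted once. The shares of all windows are per window, so the units are unlike and a gene with several windows has more room for a match.

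Of the microRNA hairpins in RefSeq, those of Mir802 and Mir137 lay under a desert region. Mir802, abundant in liver, lies in the gap from Runx1 to Setd4, under region chr16:93369670-93370256. Its fold was 5.02 and 5.13 in wild type, 6.67 and 5.28 in Cpt2 knockout, 5.69 in Ppara knockout 1, and 4.74 and 4.50 in double knockout, with no peak in Ppara knockout 2. The folds of the Ppara-intact and Ppara-null libraries overlapped. Mir137, a brain microRNA gene, lay under a region called in Cpt2 knockout 1 alone, with a fold of 5.47 at percentile 9.68.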

How the data were processed

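ATAC-seq peaks of 8 liver libraries were analysed. Per the submitters' processing notes, reads were mapped to mm10 with BWA and peaks called with MACS2 2.1.0, and the peak names show 1 call per library. The deposited lists give for each peak the authors' fold ratio over local background and the −log10 of p and q values. The deposited consensus table gives positions only, per the file headers on mm10, so no count per region could be tested. Duplicate handling and any Tn5 offset are not given in the sources used here. Read depth is unknown.

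Distances were taken to the spans of 21900 protein-coding genes of a RefSeq table on GRCm38.p6, and a distance over 100 kb made a region a desert region. The desert regions, gene lists, motifs and named regions were chosen with earlier results of these data known. Named regions were the 5 strongest called in all 8 libraries by mean percentile of −log10 p, the 3 farthest from a gene, the 3 strongest separated by Ppara or by Cpt2 status in each direction, the strongest in each direction for 5 pairs of genotypes, the 3 widest, the 2 on each side of the threshold and the 5 fullest gaps. Other regions named were picked after their values were seen. One region that this rule gives is not reported here.

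Differences by Ppara status, Cpt2 status and their interaction used two-sided exact permutation tests over 70 orders, with Benjamini-Hochberg adjustment over 12 tests. Desert and nearer values were compared within libraries by exact sign-flip tests, 8 in all, chosen after seeing the data. Background tags were solved from fold and p under a Poisson model, to within 0.02 of −log10 p. This covered 100% of the peaks below an upper limit of −log10 p set for this step. The strongest peaks, above that limit, were left out of the background and pileup values. Scripts were tested on simulated data. Equal-number lists hold the 18132 strongest peaks of each library. Other alternatives were distances of 50 and 200 kb, non-coding genes included, a −log10 q of at least 20, 50% cover, the replicate block and leaving out each library. Software was Python 3.11.15, NumPy 2.4.6, SciPy 1.17.1, pandas 2.3.3 and matplotlib 3.10.9. No genome sequence was used, so region sequences other than promoter windows and microRNAs are not shown.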

Additional observations from a re-analysis of the deposited data

How the results depend on the processing

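The lower number of desert regions called in Ppara-null libraries was not kept in lists of equal length. The difference was 16.75 regions with the opposite sign there. With non-coding genes included it kept its sign at -74.75 (exact permutation p = 0.0571), in a set of 350 desert regions instead of 2924. With 1 library left out of the main analysis the difference was -976 to -734 and always missed the threshold (exact p = 0.0571). The fold ratio by Cpt2 status kept its sign but missed the threshold at 0.0332 (200 kb), 0.0125 (non-coding genes included), 0.0404 (equal-number lists), 0.0251 (only peaks with −log10 q from 20) and 0.0245 to 0.0455 with 1 library left out, where 3 libraries against 4 allow no smaller p than 0.0571. The cause of these changes was not tested.

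Differences that missed the threshold in the main analysis passed it before adjustment (exact p = 0.0286) in some settings. By Ppara status the desert share was -1.01 points at 50 kb, and the percentile was 7.80 with the −log10 q limit of 20 and 5.73 with 50% cover. By Cpt2 status the share was 0.273 points at 200 kb, 0.0805 with non-coding genes and 0.54 at 50% cover, and the percentile 4.15 in equal-number lists. Signs turned, all without passing the threshold, as follows. By Ppara status the fold ratio was 0.00677 (50 kb), 0.0129 (non-coding genes) and 0.0178 (−log10 q), and in equal-number lists the share was 0.170 and the percentile -0.0676. The interaction in the share was -0.0324 (200 kb), -0.0157 (non-coding genes), -0.0117 (equal-number lists), -0.155 (−log10 q) and -0.0525 (50% cover). Its fold ratio was -0.00333 (50 kb), -0.00531 (200 kb) and -0.00029 (−log10 q), its percentile 1.27 (non-coding genes) and its number called -3.25 (equal-number lists).

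Desert regions numbered 5044 at 50 kb, 1365 at 200 kb and 350 with non-coding genes. The share separated by Ppara status was 0.581% in the null and 0.889% in the intact direction with equal-number lists, 0.103% in the null direction at 50% cover and 0 with non-coding genes. In the Cpt2-null direction it was 0.0684% (equal-number lists), 0.0342% (−log10 q) and 0 (non-coding genes). In equal-number lists the pairs totalled 1.68% (Cpt2 knockout and wild type), 5.47% (Ppara knockout and wild type), 6.36% (double knockout and wild type), 5.81% (double and Cpt2 knockout) and 5.98% (Cpt2 and Ppara knockout). With the −log10 q limit, Cpt2 knockout and wild type gave 3.15% and double and Ppara knockout 1.95%.

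Leaving out a library loosens the rule for separation, and the shares are higher by construction. The share was 6.33% to 12.8% in the Ppara-intact direction, 0.205% to 0.342% in the Ppara-null direction and 0.239% to 0.547% in the Cpt2-null direction. Pairs totalled 13.0% to 18.1% (Cpt2 knockout and wild type), 18.6% to 32.0% (Ppara knockout and wild type), 19.9% to 32.8% (double knockout and wild type), 29.9% to 39.5% (double and Cpt2 knockout), 29.1% to 39.9% (Cpt2 and Ppara knockout) and 9.71% to 12.9% (double and Ppara knockout). Signs turned within the ranges of the fold ratio by Ppara status (-0.0149 to 0.0113) and of the interaction in number called (-85.6 to 343.75), share (-0.162 to 0.261) and fold ratio (-0.0130 to 0.0121). No chromosome with a region lacked a coding gene, so leaving out such chromosomes gives no value.

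With the replicate number as a block (replicate block), the smallest exact p over 36 orders is 0.0556, so no difference can pass. In the main analysis -836.25 regions by Ppara status and 0.0367 in fold ratio by Cpt2 status had passed before adjustment only. No other call changed. Correlations of replicate differences between genotypes were -0.0292 to 0.00453, so equal numbers do not pair libraries.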
